A study of Homo sapiens with 6 samples.

Results

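Fatty acid synthesis and lipid storage genes are the enzymes, regulators, droplet coat proteins, lipases and carriers with which a cell makes, modifies, stores and takes up fatty acids. They were chosen by name as a list of 36 genes, with earlier results of these data known, and 32 of them had a value among the 11963 genes tested. Where a gene had several probe sets (groups of short probes for 1 transcript region), the brightest over the 6 arrays was read. FADS1 and ELOVL1 were annotated together with a microRNA on every probe set that named them, so no value was assigned to either, and ACSL3 and GPAM were not analysed here.

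RNA levels were measured on 6 Affymetrix arrays from a pair of established human breast carcinoma cell lines. SUM44, labelled tamoxifen sensitive, was grown in 3 cultures that received 4-hydroxytamoxifen (4HT), an active form of the estrogen receptor ligand tamoxifen, at 500 nM for 24 hours. LCCTam, labelled tamoxifen resistant and known as a line selected from SUM44 by growth in the drug, was kept without 4HT for 14 days in 3 cultures. Both lines are labelled as invasive lobular carcinoma with estrogen and progesterone receptors, and all cultures were grown in SFIH medium based on Ham's F12. Cell line and drug exposure differ together between the groups and cannot be told apart. The comparison sets the transcript levels of the resistant line against those of the sensitive line exposed to the drug. Levels are log2 values made by the authors with RMA, differences are LCCTam minus SUM44 with the standard error (SE), and a gene was called at a Benjamini-Hochberg adjusted p under 0.05 in a limma fit over all genes. The titles call the arrays biological replicates and say no more, so the p-values cover the spread among these cultures, and having 3 arrays a group limits the precision. In bulk RNA, a change in the share of cells and a change in RNA per cell cannot be told apart.

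Fatty acid synthesis starts from citrate, which leaves the mitochondrion and is cleaved to acetyl-CoA, and acetyl-CoA is carboxylated and condensed by fatty acid synthase to palmitate. Elongases and desaturases then lengthen the chain and add double bonds, acyl-CoA synthetases activate the product, and acyltransferases load it onto glycerol for membranes and for triacylglycerol in lipid droplets. The transcription factor SREBP1, the product of SREBF1, drives many of these genes, and breast carcinoma cells of luminal type are known for active lipogenesis.

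The LCCTam arrays lay farther apart (correlations over genes of 0.958 to 0.987) than the SUM44 arrays (0.994 to 0.995), and the correlation of LCCTam replicate 1 with SUM44 was 0.972 to 0.974. Of the 32 lipid genes, 19 had LCCTam replicate 1 as the LCCTam array nearest to the SUM44 mean, or 59.4%, beside 58.3% of all genes. The SD was larger in LCCTam than in SUM44 for 22 of the 32, beside 75.4% of all genes. The markers of luminal epithelium (keratins, hormone receptors, transcription factors and EPCAM) had a mean log2 level over 12 genes of 10.5 to 10.6 in SUM44 and 10.3 to 10.4 in LCCTam. This mean hides members that moved in opposite directions: 3 of the 12 were called higher and 5 lower, or 66.7%, beside 15.8% of all genes, and 2 to 9 of the 12 were called with an array left out. Of the 2 receptors named in the labels, the estrogen receptor ESR1 was at 11.72, 11.42 and 11.73 in SUM44 and at 10.71, 10.29 and 9.65 in LCCTam, and PGR, the progesterone receptor, was dim at 4.22 and 4.01. ESR1 differed by -1.40 ± 0.25 (SE; adjusted p = 0.0109 in limma), with no overlap. Its call was lost without SUM44 replicate 1 or 3 (highest adjusted p = 0.0583), and averaging its probe sets left a called difference of -0.42. KRT8, a keratin of simple epithelia, fell by 1.09, and GATA3, a transcription factor of luminal cells, rose by 1.11, and both were called under every alternative tried. The part of these differences in the lipid gene values was not tested.

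The called genes of the pathway lay in both directions. The long-chain fatty acid elongase ELOVL5, the stearoyl-CoA desaturase SCD and the monoglyceride lipase MGLL were lower in LCCTam by 2.05-, 1.68- and 1.59-fold. The droplet coat protein PLIN3 and the droplet-associated lipase PNPLA3 were higher by 1.61- and 1.51-fold. In all, 2 of the 32 were called higher, 3 were called lower and 27 were not called. The called share was 15.6%, and among all genes 15.8% were called, 9.18% higher and 6.6% lower, so the list stood near the background. The fit was also run on simulated data with 200 of 11963 genes changed per run and equal spread in both groups. There it called 20.1% of genes changed 1.5-fold and 77% of those changed 2-fold. In the data many more genes were called and the SD was more often larger in LCCTam, so these rates need not hold here. A gene without a call may still differ. The median difference was 0.04 over the lipid genes and 0.08 over all genes tested. After cyclic loess the median was -0.03 over the lipid genes and 0.0003 over all genes, so both went down. Then 2 lipid genes were called higher and 5 lower, with ACACB and LPIN2 joining the lower ones. This was 21.9% of the 32, beside 13.7% of all genes.

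**Figure D1:**
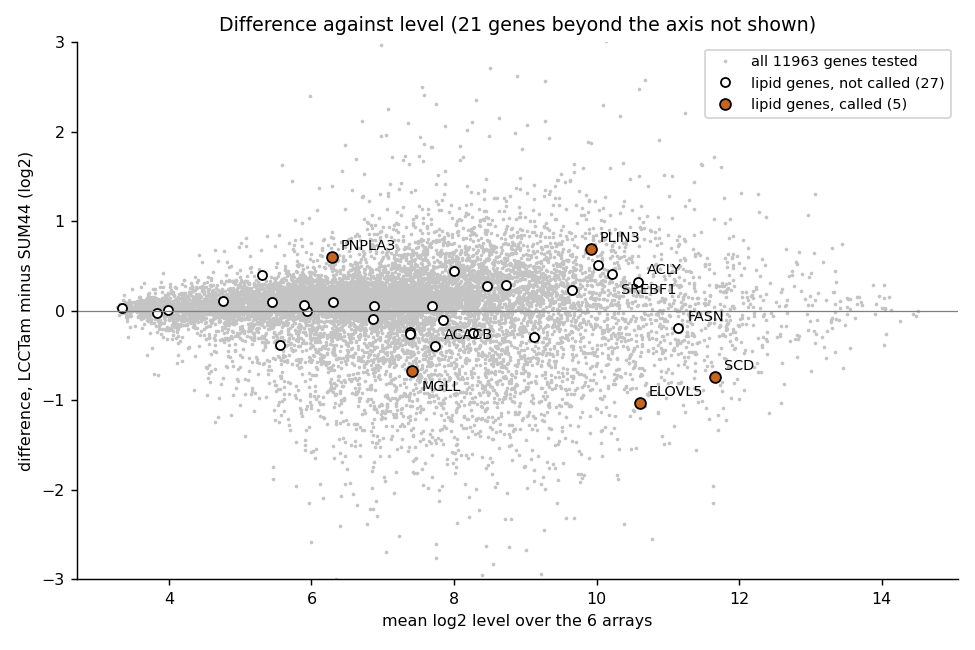
Difference between the lines (LCCTam minus SUM44, log2) against the mean log2 level over the 6 arrays, with all 11963 genes tested in grey and 21 of them beyond the axis. The 5 called lipid genes are filled and the 27 others open, and they lie within the cloud of all genes.

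Small differences had a like share in the lipid genes and in all genes, though the largest was 1.03 among the lipid genes and 7.35 among all. The median absolute difference was 0.26 over the lipid genes and 0.20 over all genes. Of the 32, 27 differed by less than 1.5-fold (84.4%, beside 82.9% of all genes), and ELOVL5 alone was called at 2-fold or more, which 4.89% of all genes were. Before adjustment, 13 of the 32 had a p under 0.05 (40.6%, beside 31.4%). The groups did not overlap at 10 of the 32, 5 higher and 5 lower, and at 35.4% of all genes.

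The calls depended on the arrays used. Without LCCTam replicate 1, the array nearest to SUM44, 8 lipid genes were called higher and 5 lower, or 40.6% of the 32, while 35.5% of all genes were then called. The 8 were SLC25A1, ACLY, SREBF1, AGPAT2, PLIN3, PNPLA3, LIPE and FABP4, and the 5 were SCD, ELOVL5, ELOVL6, ACSL1 and MGLL. Without SUM44 replicate 1, SUM44 replicate 3 and LCCTam replicate 2 the called lipid genes numbered 0, 0 and 1 (SCD), and without SUM44 replicate 2 the 1 called was PNPLA3, with 6.73%, 6.28%, 6.33% and 7.22% of all genes called in those fits.

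**Figure D2:**
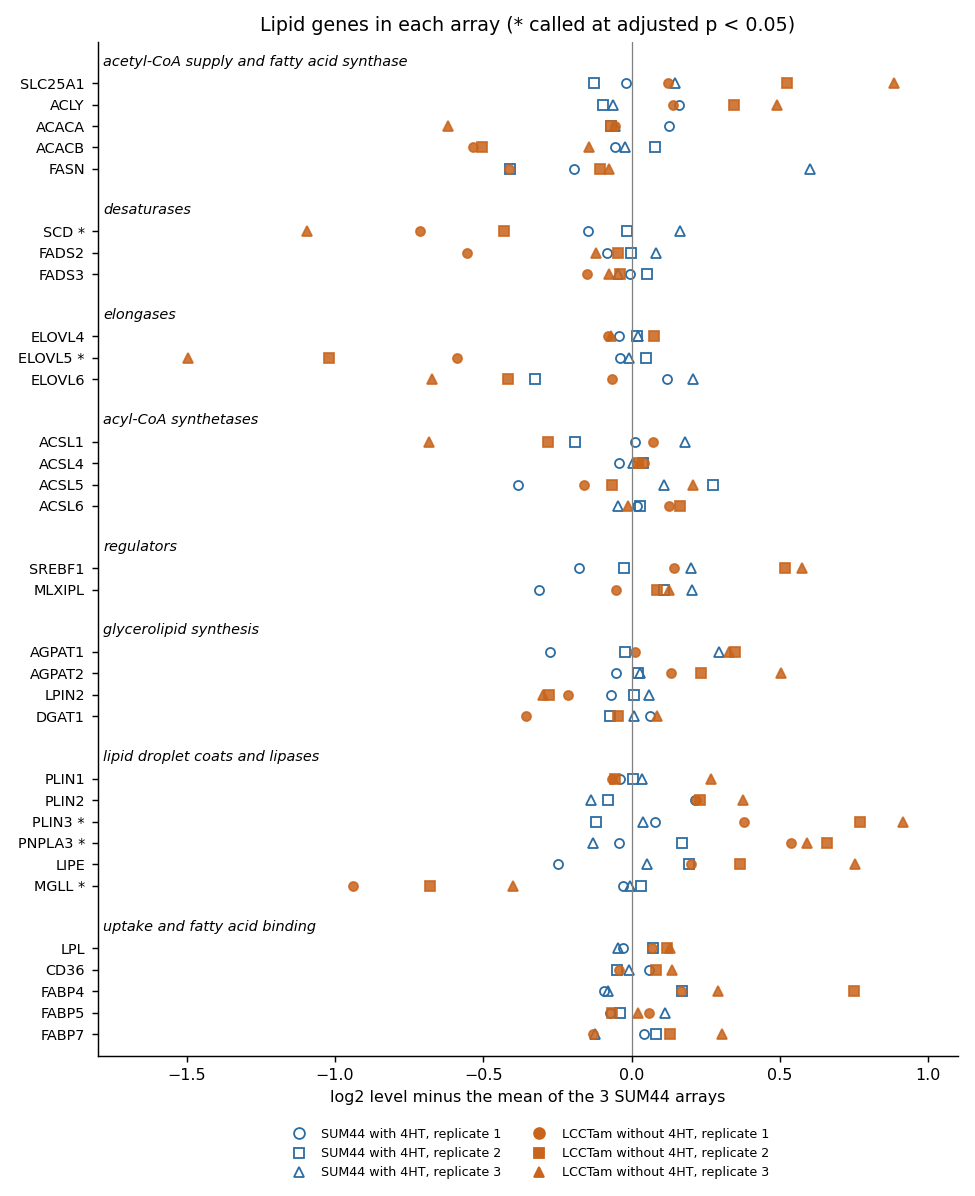
Log2 level of each of the 32 lipid genes in each array, minus the mean of the 3 SUM44 arrays, grouped by role. Open blue symbols are SUM44 arrays, filled orange symbols are LCCTam arrays, and the symbol shape gives the replicate number. An asterisk marks the 5 called genes, whose LCCTam arrays all lie on 1 side of the SUM44 arrays, as at 35.4% of all genes.

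None of the 5 genes that supply acetyl-CoA and build palmitate was called by limma, and 3 of them (SLC25A1, ACLY and ACACB) had an unadjusted p under 0.05. FASN, fatty acid synthase itself, was at 11.05, 10.84 and 11.85 in SUM44 replicates 1, 2 and 3 and at 10.83, 11.14 and 11.17 in LCCTam. SUM44 replicate 3 stood above the other 5 arrays, which overlapped. The difference was -0.20 ± 0.25 (SE), with a 95% interval of -0.79 to 0.40 (adjusted p = 0.638 in limma), and it turned to 0.10 without SUM44 replicate 3. A dimmer probe set of FASN had the opposite sign (0.16 ± 0.12), and the mean of both was -0.018.

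SLC25A1, the citrate carrier of the mitochondrial inner membrane, was at 9.75, 9.64 and 9.91 in SUM44 and at 9.89, 10.29 and 10.65 in LCCTam. ACLY, which cleaves citrate to acetyl-CoA, was at 10.58, 10.32 and 10.36 in SUM44 and at 10.56, 10.77 and 10.91 in LCCTam. In both genes LCCTam replicates 2 and 3 lay above every SUM44 array and LCCTam replicate 1 lay among them. The differences were 0.51 ± 0.19 and 0.32 ± 0.13 (adjusted p = 0.12 and 0.138 in limma), and without LCCTam replicate 1 they were called (adjusted p = 0.00553 and 0.0317).

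The 2 acetyl-CoA carboxylases, which make the malonyl-CoA that fatty acid synthase extends, had lower values in LCCTam without being called. ACACB, the isoform linked to mitochondria, was at 7.88, 8.01 and 7.91 in SUM44 and at 7.40, 7.43 and 7.79 in LCCTam. The groups did not overlap, with LCCTam replicate 3 closest to SUM44, and the difference was -0.39 ± 0.13 (adjusted p = 0.0872 in limma). Of its 3 dimmer probe sets, 2 were called lower, by -0.56 ± 0.10 and -0.71 ± 0.12 (adjusted p = 0.0105 and 0.00986 among all 22215 probe sets), and the mean of its 4 probe sets was called lower at -0.48 (adjusted p = 0.0126). Without LCCTam replicate 3 the brightest probe set was called as well (-0.52, adjusted p = 0.0155). ACACA, the cytosolic isoform, gave -0.25 ± 0.17 (-0.40 after cyclic loess and -0.13 for the mean of its probe sets), with LCCTam replicate 3 at 7.77 below the 5 other arrays, which lay between 8.32 and 8.51.

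Of the 3 measured desaturases, which place double bonds in the chain, SCD was called lower and FADS2 and FADS3 were not called. SCD, which makes oleate from stearate, was at 11.89, 12.03 and 12.20 in SUM44 and at 11.33, 11.61 and 10.95 in LCCTam. Every LCCTam array lay below every SUM44 array, with LCCTam replicate 3 the lowest. The level was 12.04 ± 0.16 (SD, n = 3) in SUM44 and 11.30 ± 0.33 in the resistant line, a difference of -0.75 ± 0.18 (SE; adjusted p = 0.0306 in limma). The 3 dimmer probe sets of SCD gave -0.77, -0.97 and -0.94, and 2 of them were called (adjusted p = 0.059, 0.0279 and 0.0108). Leaving out SUM44 replicate 1, 2 or 3 ended the call (adjusted p = 0.0768, 0.0964 and 0.126), with adjusted p between 0.0144 and 0.126 across all alternatives. FADS2, which catalyses the first step of polyunsaturated fatty acid synthesis, gave -0.24 ± 0.15, with LCCTam replicate 1 at 6.95 and the 5 other arrays between 7.39 and 7.59. FADS3, a related desaturase, gave -0.09 ± 0.10, and its dimmer probe set 0.07 ± 0.10.

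Elongases add carbon pairs to fatty acids, and of the 3 measured, ELOVL5 was called lower and ELOVL4 and ELOVL6 were not called. ELOVL5, which extends polyunsaturated chains, was at 11.09, 11.18 and 11.12 in SUM44 and at 10.54, 10.11 and 9.63 in LCCTam. The SUM44 arrays were close together, and the LCCTam arrays all lay lower and far apart. The level was 11.13 ± 0.04 (SD, n = 3) in SUM44 against 10.09 ± 0.45 in LCCTam, a difference of -1.03 ± 0.21 (SE; adjusted p = 0.0175 in limma). Its dimmer probe sets, at mean levels of 6.76 and 5.95 beside 10.61 for the one used, differed by -0.18 ± 0.14 and 0.14 ± 0.10 without a call. Averaging the 3 probe sets gave -0.36 (adjusted p = 0.0416), so the size depended on the probe set. Leaving out SUM44 replicate 1, 2 or 3 or LCCTam replicate 2 ended the call (adjusted p = 0.0682, 0.0706, 0.0732 and 0.073), with the difference at -1.05, -1.01, -1.04 and -1.04. Across all alternatives the adjusted p lay between 0.000373 and 0.0732.

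ELOVL6, which elongates palmitate, had a dim signal of 5.76 ± 0.29 (SD, n = 3) in SUM44 and 5.37 ± 0.31 in LCCTam. Both are under 5.93, the 25th percentile of the means of all genes, and are called dim here, since without detection calls such a signal may be background. The groups overlapped and the difference was -0.39 ± 0.20. It was called without LCCTam replicate 1 (adjusted p = 0.0375). ELOVL4, an elongase of very long chains, was dimmer still at 3.85 and 3.83.

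**Figure D3:**
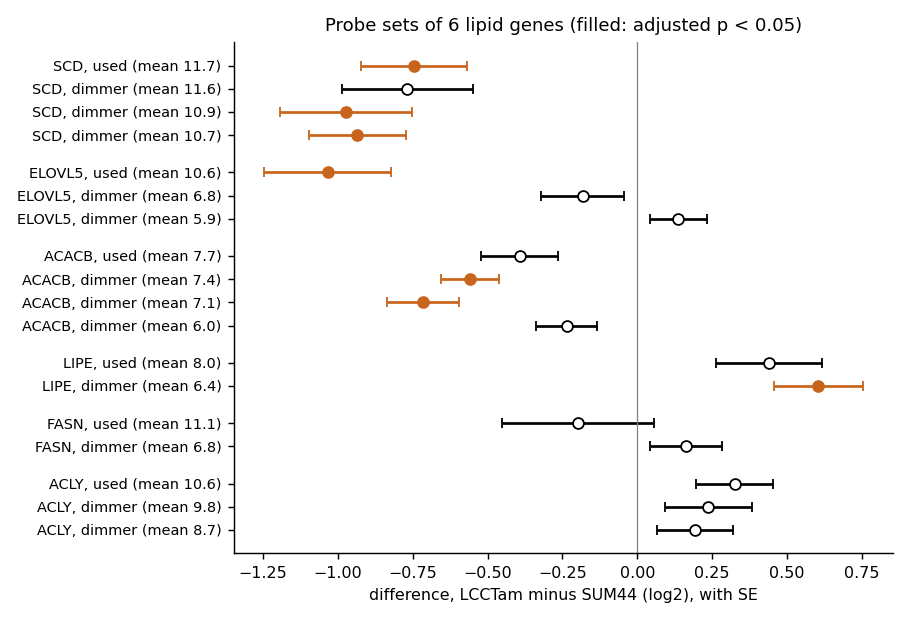
Difference between the groups (LCCTam without 4HT minus SUM44 with 4HT, log2) with its SE for every probe set of 6 lipid genes. The probe set used comes first, and the mean log2 level is in brackets. All 4 probe sets of SCD and all 4 of ACACB lie below 0, while the large difference of ELOVL5 is found in its brightest probe set and not in the dimmer ones.

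The sequence upstream of the transcription start is shown for the called genes listed in the RefSeq promoter table, to set the lowered SCD and ELOVL5 beside the raised PLIN3. Each line gives the 250 bases before the start, 5′ to 3′ on the strand of the gene, in assembly GRCh38.p14. Capitals mark the motifs CCAAT (bound by NF-Y), GGGCGG (of SP1 type) and CACGTG (an E-box), on either strand. SCD lies on the plus strand at chr10:100346983-100347232, ELOVL5 on the minus strand at chr6:53348951-53349200 and PLIN3 on the minus strand at chr19:4867668-4867917.
SCD: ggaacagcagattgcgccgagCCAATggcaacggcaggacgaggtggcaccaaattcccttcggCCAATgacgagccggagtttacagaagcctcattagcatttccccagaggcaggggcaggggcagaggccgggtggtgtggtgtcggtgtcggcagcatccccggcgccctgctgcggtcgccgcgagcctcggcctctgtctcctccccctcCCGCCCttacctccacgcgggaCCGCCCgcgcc
ELOVL5: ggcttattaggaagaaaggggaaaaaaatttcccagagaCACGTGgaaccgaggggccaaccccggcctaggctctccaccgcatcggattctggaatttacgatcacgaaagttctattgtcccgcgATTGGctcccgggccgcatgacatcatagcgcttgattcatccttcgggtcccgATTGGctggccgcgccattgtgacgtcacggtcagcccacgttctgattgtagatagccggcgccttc
PLIN3: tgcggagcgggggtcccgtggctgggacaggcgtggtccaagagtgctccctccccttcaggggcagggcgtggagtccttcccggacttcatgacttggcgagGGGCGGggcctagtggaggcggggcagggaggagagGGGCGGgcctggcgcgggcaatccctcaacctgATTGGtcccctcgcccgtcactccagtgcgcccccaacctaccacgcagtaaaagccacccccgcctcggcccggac

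Each of these windows held CCAAT in 1 or other orientation, with 2 matches in SCD, 2 in ELOVL5 and 1 in PLIN3. GGGCGG occurred at 2 positions in SCD and 2 in PLIN3, and CACGTG at 1 position in ELOVL5. Over the 56 windows of the 29 lipid genes in the table, CCAAT occurred in 37.5%, GGGCGG in 57.1% and CACGTG in 7.14%. Over all 35116 windows of the table these shares were 32%, 42.6% and 6.34%, and over the 22199 windows of protein-coding genes 32.7%, 53.7% and 7.37%. The SREBP-type letters TCACNCCAC were found in 2 of the 56 windows, 1 each of ACSL1 and ACSL6, and in 0.883% of all windows. The LXR type (2 copies of AGGTCA 4 bases apart) and the ChREBP type (2 copies of CACGTG 5 bases apart) were found in none of the 56, and in 0.0142% and 0.00285% of all windows. Of these motifs, only the ChREBP type contains another, CACGTG. DGAT1, FABP4, FABP5, FASN, LPL, MGLL and PNPLA3 were not in the table.

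Acyl-CoA synthetases attach coenzyme A to long-chain fatty acids, and none of the 4 measured was called by limma or reached an unadjusted p under 0.05. ACSL1 was at 9.29, 9.09 and 9.46 in SUM44 and at 9.35, 9.0 and 8.59 in LCCTam, a difference of -0.30 ± 0.20. LCCTam replicate 1 lay among the SUM44 arrays and replicates 2 and 3 below them. Its dimmer probe set gave -0.37, and without LCCTam replicate 1 the gene was called lower (-0.48, adjusted p = 0.0438). ACSL5 gave -0.01 ± 0.19, a sign that turned without SUM44 replicates 2 or 3 or LCCTam replicates 1 or 2. ACSL6 gave 0.09 ± 0.10, and ACSL4 had a dim signal of 3.33 and 3.36.

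SREBF1, the gene of SREBP1, was at 9.83, 9.98 and 10.21 in SUM44 and at 10.15, 10.52 and 10.58 in LCCTam. LCCTam replicates 2 and 3 lay above every SUM44 array and LCCTam replicate 1 lay below SUM44 replicate 3. The difference of 0.41 ± 0.16 was not called (adjusted p = 0.121 in limma, 95% interval 0.05 to 0.78 before adjustment), and it was called without LCCTam replicate 1 (0.55, adjusted p = 0.0132). MLXIPL, the gene of the sugar-responsive factor ChREBP, gave 0.05 ± 0.15, which turned to -0.08 after cyclic loess and to -0.10 without SUM44 replicate 1.

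In glycerolipid synthesis none of the 4 measured genes was called by limma, and AGPAT2 and LPIN2 had an unadjusted p under 0.05. AGPAT2, an acyltransferase that makes phosphatidic acid, was at 8.53, 8.60 and 8.61 in SUM44 and at 8.71, 8.81 and 9.08 in LCCTam. The groups did not overlap, and the difference was 0.29 ± 0.12 (adjusted p = 0.153), called without LCCTam replicate 1 (adjusted p = 0.0451) and 0.14 after cyclic loess. Its paralog AGPAT1 gave 0.23 ± 0.17 with overlapping groups. LPIN2, a phosphatidate phosphatase, was at 7.44, 7.52 and 7.57 in SUM44 and at 7.30, 7.23 and 7.22 in LCCTam, a difference of -0.26 ± 0.10 (adjusted p = 0.109) with no overlap, and it was called lower after cyclic loess (adjusted p = 0.046). DGAT1, which completes triacylglycerol, gave -0.10 ± 0.13.

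Of the 6 genes of droplet coats and lipases, 2 were called higher, 1 was called lower and 3 were not called, beside 9.18% of all genes called higher and 6.6% lower. PLIN3, a coat protein that moves from the cytosol to nascent droplets, was at 9.65, 9.45 and 9.61 in SUM44 and at 9.95, 10.34 and 10.49 in LCCTam. All LCCTam arrays lay above all SUM44 arrays, with LCCTam replicate 1 the closest to them. The level was 9.57 ± 0.10 (SD, n = 3) in SUM44 against 10.26 ± 0.28 in LCCTam, a difference of 0.69 ± 0.15 (SE; adjusted p = 0.0236 in limma). Leaving out SUM44 replicate 1, 2 or 3 or LCCTam replicate 2 ended the call (adjusted p = 0.0768, 0.0949, 0.086 and 0.103), with adjusted p between 0.000863 and 0.103 across all alternatives.

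PNPLA3, a triacylglycerol lipase of the droplet surface that SREBP1 is known to induce, was at 5.95, 6.16 and 5.86 in SUM44 and at 6.53, 6.65 and 6.58 in LCCTam. The LCCTam arrays were close together and all above the SUM44 arrays. The level was 5.99 ± 0.15 (SD, n = 3) in SUM44, near the dim range, and 6.59 ± 0.06 in LCCTam, a difference of 0.60 ± 0.11 (SE; adjusted p = 0.0135 in limma). Leaving out SUM44 replicate 1 or 3 or LCCTam replicate 2 ended the call (adjusted p = 0.068, 0.0694 and 0.0725), with adjusted p between 0.00511 and 0.0725 across all alternatives.

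MGLL, which releases the last fatty acid from monoacylglycerol, was at 7.72, 7.78 and 7.75 in SUM44 and at 6.81, 7.07 and 7.35 in LCCTam. Here LCCTam replicate 3, and not replicate 1, was the closest to SUM44, and the groups did not overlap. The level was 7.75 ± 0.03 (SD, n = 3) in SUM44 against 7.08 ± 0.27 in LCCTam, a difference of -0.67 ± 0.15 (SE; adjusted p = 0.0209 in limma). Leaving out SUM44 replicate 1, 2 or 3 or LCCTam replicate 2 ended the call (adjusted p = 0.0804, 0.0829, 0.0853 and 0.0879), with adjusted p between 0.00446 and 0.0879 across all alternatives.

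**Figure D4:**
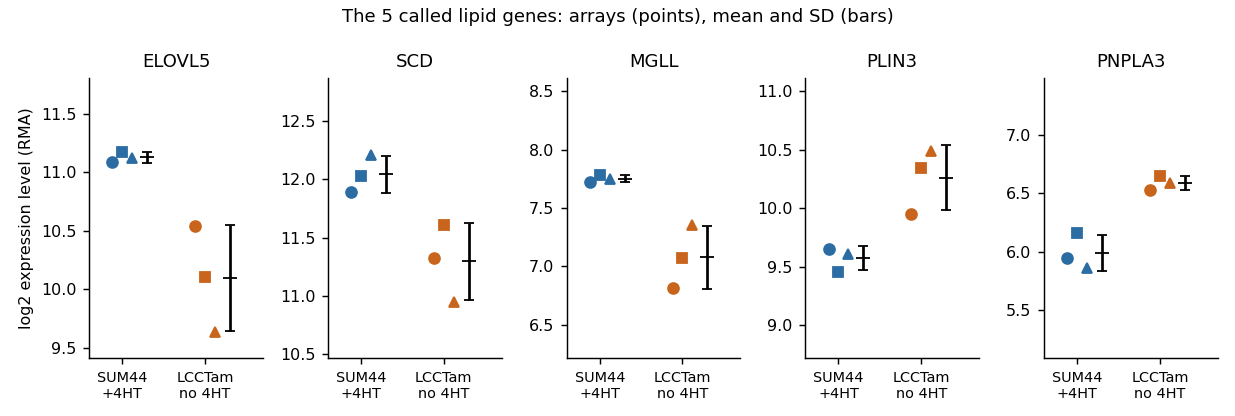
Log2 expression levels of the 5 called lipid genes in each array, with the symbol shape giving the replicate number and the bars the mean and SD (n = 3). The vertical axes span the same 2.4 log2 units and are cut, not starting at 0. In every panel, shown because the gene was called, the groups do not overlap, as at 35.4% of all genes.

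LIPE, hormone-sensitive lipase, was at 7.53, 7.97 and 7.83 in SUM44 and at 7.98, 8.14 and 8.53 in LCCTam. The groups did not overlap by a narrow margin between SUM44 replicate 2 and LCCTam replicate 1. The difference was 0.44 ± 0.18 (adjusted p = 0.138), and a dimmer probe set was called higher by 0.60 ± 0.15 (adjusted p = 0.0375 among all probe sets). PLIN2, the main droplet coat protein of cells other than adipocytes, was at 8.54, 8.24 and 8.19 in SUM44 and at 8.54, 8.56 and 8.70 in LCCTam, a difference of 0.28 ± 0.13 (adjusted p = 0.183). Its other probe set, dim at 5.18 in SUM44 and 5.07 in LCCTam, went the other way (-0.10 ± 0.10). The difference was 0.085 for the mean of both and 0.12 after cyclic loess. On the brighter probe set, SUM44 replicate 1 lay just below the lowest LCCTam array and the other SUM44 arrays far below it. PLIN1, the coat protein of adipocyte droplets, gave 0.05 ± 0.12, which turned to -0.05 after cyclic loess.

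The 5 genes of uptake and fatty acid binding were dim in both groups, and none was called by limma, with FABP4 alone at an unadjusted p under 0.05. LPL, which releases fatty acids from lipoproteins, was at 4.71 and 4.82, CD36, a fatty acid translocase, at 5.86 and 5.92, and FABP5 and FABP7, carriers of fatty acids in the cytosol, at 3.98 and 3.99 and at 5.40 and 5.50. FABP4, the adipocyte carrier, was at 5.02, 5.28 and 5.03 in SUM44 and at 5.27, 5.86 and 5.40 in LCCTam. Its LCCTam replicate 2 stood apart, replicate 1 lay within the SUM44 range, and the difference was 0.40 ± 0.17 (adjusted p = 0.153, and 0.0333 without LCCTam replicate 1). Of 8 measured adipocyte markers, ADIPOQ, LEP and PPARG were dim in both groups. None of the 8 was called by limma, beside 15.8% of all genes, and 2 had an unadjusted p under 0.05, beside 31.4%. All 8 had a positive difference, as did 7533 of the 11963 genes tested, and their median was 0.25, beside 0.08 over all genes. Marker lists of fibroblasts, endothelium and leukocytes also had positive medians, of 0.13, 0.11 and 0.09. The mean level of the 8 adipocyte markers ran from 5.99 to 6.12 in SUM44 and from 6.12 to 6.41 in LCCTam. The part of the adipocyte markers in the FABP4 values was not tested.

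Outside the 36 genes, 23 further genes of fatty acid synthesis and activation were measured, of which 3 were called higher, 1 was called lower and 19 were not called (17.4% called, beside 15.8% of all genes). TECR, which carries out the last reduction of each elongation cycle, was at 8.94, 8.81 and 8.97 in SUM44 and at 10.20, 10.51 and 10.35 in LCCTam. This was a difference of 1.45 ± 0.12 (SE; adjusted p = 0.000383 in limma), larger than that of any of the 32 lipid genes, and it was called under every alternative tried. MID1IP1, which promotes polymerisation of acetyl-CoA carboxylase, rose by 0.79 ± 0.13, and ELOVL2, an elongase of polyunsaturated chains that was dim in SUM44, by 0.73 ± 0.12. DBI, the acyl-CoA binding protein, fell by 0.68 on the log2 scale, a call lost without each SUM44 array (highest adjusted p = 0.0817).

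Of 28 other genes of glycerolipids and droplets, 2 were called higher, 1 was called lower and 25 were not called (10.7% called, beside 15.8% of all genes). HILPDA, a hypoxia-inducible droplet protein, rose by 0.46 ± 0.12, PCYT2, of phosphatidylethanolamine synthesis, by 0.42 ± 0.12, and CDS2, of phosphatidylinositol synthesis, fell by 0.54. PCYT2, at an adjusted p of 0.0496 in limma, lost its call under 10 of 14 alternatives. HILPDA lost its own under 6 of 14, among them cyclic loess and each array left out other than LCCTam replicate 1, and CDS2 without each SUM44 array.

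Of 30 measured regulators of lipogenesis, 6 were called higher, 2 were called lower and 22 were not called. The called share was 26.7%, beside 15.8% of all genes, and the median difference was 0.12, beside 0.08 over all genes. The adipogenic factor CEBPA was at 7.34, 7.32 and 7.45 in SUM44 and at 8.23, 8.73 and 8.69 in LCCTam (1.18 ± 0.15, adjusted p = 0.00265 in limma). Its relative CEBPB rose by 0.90 ± 0.12 and TRIB3, a stress-induced pseudokinase, by 1.51 ± 0.21. These 3 stayed called under every alternative tried. MBTPS1, the protease that starts the release of SREBP from its membrane anchor, rose by 0.58 ± 0.10, NR1H3, the lipid-sensing receptor LXR alpha, by 0.48 ± 0.12 and its partner RXRB by 0.51 ± 0.10. MBTPS1 lost its call without SUM44 replicate 1 (adjusted p = 0.0561), RXRB under 4 and NR1H3 under 5 of the 14 alternatives, all of them fits with an array left out.

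INSIG2, which retains SREBP in the endoplasmic reticulum, was at 7.93, 7.17 and 7.72 in SUM44 and at 7.10, 6.16 and 6.13 in LCCTam. LCCTam replicate 1 lay just below SUM44 replicate 2 and the other LCCTam arrays far lower. The difference was -1.14 ± 0.30 (adjusted p = 0.0419 in limma), and the call was lost under 7 of 13 alternatives, up to an adjusted p of 0.157. PRKAA1, a catalytic subunit of the AMP-activated kinase that restrains acetyl-CoA carboxylase, fell by 0.62 at a dim signal, and it lost its call when its probe sets were averaged (-0.29, adjusted p = 0.0614).

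**Figure D5:**
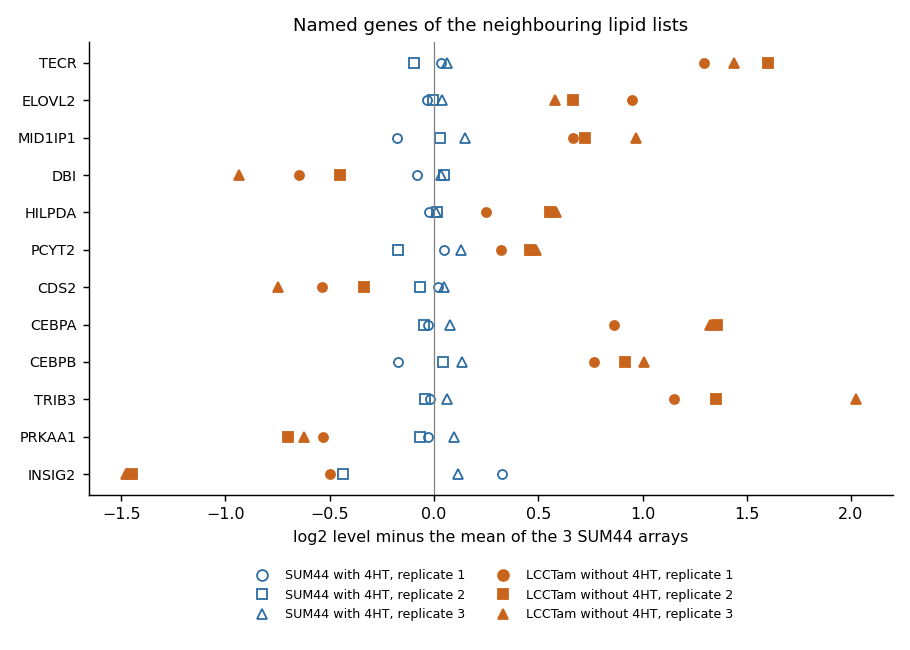
Log2 level of 12 named genes of neighbouring lipid lists in each array, minus the mean of the 3 SUM44 arrays. Open blue symbols are SUM44 arrays and filled orange symbols LCCTam arrays. The 12 were picked among the called genes by smallest adjusted p in limma, a choice that favours separate groups. In each of them the LCCTam arrays lie on 1 side of the SUM44 arrays, as at 35.4% of all genes. Those of TECR lie 1.29 to 1.60 above the SUM44 mean.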

How the data were processed

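The deposited table held log2 expression levels for 22283 probe sets on 6 arrays, which the authors made with RMA (background correction, quantile normalisation and a summary per probe set), per the labels' protocols and the submitters' processing notes. The RMA version is not given in the sources used here. Values ran from 3.16 to 14.6. Quantile normalisation hides a change in total RNA per cell. Probe sets were named from the platform annotation (19065 with 1 gene, 1043 with several, 2107 with none, 68 controls left out), and symbols were updated by gene ID through RefSeq (GRCh38.p14) for 19053. Probe sets with several genes were not used.

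The groups were fitted in limma 3.58.1 (lmFit, eBayes; R 4.3.3), two-sided, with Benjamini-Hochberg adjustment over 11963 genes. The fit was tested on simulated data. Values of further probe sets come from a fit of all 22215. Every lipid gene on the list was to be named, and from each other lipid list the 3 called genes with the smallest adjusted p in each direction. MBTPS1, RXRB, NR1H3, ESR1, KRT8 and GATA3 were named after their values were seen. The members and lists were chosen with earlier results of these data known. The lists share LPIN1 (glycerolipids, regulators), PPARG (regulators, adipocytes) and CIDEA, CIDEC and PLIN4 (glycerolipids, adipocytes). Promoter windows came from RefSeq, and 29 of 36 genes matched. Fibroblast, endothelial and leukocyte marker lists had 0 called of 9, 6 and 8 measured in limma, beside 15.8% of all genes. They had 0, 0 and 1 at an unadjusted p under 0.05, beside 31.4% of all genes. Of these markers, 4, 2 and 2 were dim in both groups, and lists this short say little about a lack of change.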

Additional observations from a re-analysis of the deposited data

How the results depend on the processing

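Of the 32 lipid genes, 24 kept their direction under every alternative in which they were fitted, 5 lost a call under at least 1 alternative and 10 gained one. The 5 called genes kept their sign throughout. Their differences ran from -0.90 to -0.57 for SCD, -1.26 to -0.36 for ELOVL5 and -0.81 to -0.54 for MGLL. PLIN3 ran from 0.57 to 0.84 and PNPLA3 from 0.51 to 0.68. All called genes counted 1888 of 11963 (1098 higher, 790 lower), or 15.8%. With every probe set as its own unit, 3002 of 22215 probe sets were called (1677 and 1325), or 13.5%. At an adjusted p under 0.01 the called genes were 723 of 11963 (423 and 300). There 0 of the 32 lipid genes were called higher, 0 lower and 8 of the other lists. Those lists had 23, 28 and 30 genes measured, with LPIN1 both among the glycerolipid genes and the regulators. With each array left out the counts of called genes ran from 751 to 4241 (6.28% to 35.5% of all genes), with 430 to 2237 higher and 303 to 2004 lower. Lipid genes called higher ran from 0 to 8, lower from 0 to 5, and those of the other lists, 15 with all arrays, from 7 to 33. With genes above the median level, which leaves out PNPLA3, 19 lipid genes were fitted, of which 1 was called higher and 3 lower. This was 21.1%, beside 29.2% of all genes fitted. After cyclic loess 2 of the 32 were called higher and 5 lower, or 21.9%, beside 13.7% of all genes.

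Signs turned for 8 uncalled genes. With arrays left out, FASN ran from -0.40 to 0.10, ELOVL4 from -0.074 to 0.0039, ACSL5 from -0.20 to 0.13, MLXIPL from -0.10 to 0.15, DGAT1 from -0.20 to 0.021, PLIN1 from -0.061 to 0.11 and FABP5 from -0.032 to 0.061. After cyclic loess MLXIPL gave -0.078, PLIN1 -0.052, CD36 -0.014 and FABP5 -0.017, and FABP5 gave -0.0084 after centring on array medians. The cause of these changes was not tested.

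The titles do not say whether same-numbered arrays were paired. Deviations from the group means correlated at 0.49, 0.35 and -0.05 between same-numbered arrays. The same-numbered SUM44 array was the closest for LCCTam replicates 1 and 2, while LCCTam replicate 3 was closest to SUM44 replicate 2 (0.49). With 3 arrays a group these correlations cannot decide the pairing. With the replicate number as a block, 2152 genes were called, or 18% of all genes. Of the 32 lipid genes, 3 were then called higher, SREBF1 joining them (adjusted p = 0.049 in limma), and 3 lower. In the same fit 18 genes of the other lists were called.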
